A study of Chionodraco hamatus and Gymnodraco acuticeps and Trematomus bernacchii with 9 samples.

Results

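The antioxidant and redox enzymes described here are 43 of the 12653 rows of a read count table from the head kidney of 3 Antarctic notothenioid fish. They were chosen by a rule on names that used no measured value, though earlier results of these data were known. A row belonged to the set when its protein mnemonic was that of a superoxide dismutase, catalase, glutathione peroxidase, peroxiredoxin, thioredoxin or thioredoxin reductase, glutaredoxin, enzyme of glutathione synthesis or reduction, glutathione transferase, quinone reductase NQO1, heme oxygenase, biliverdin reductase, methionine sulfoxide reductase, or the regulators NRF2 and KEAP1. Each row is a UniProt entry, named by a protein mnemonic and an organism code such as DANRE for zebrafish or BOVIN for cattle, and the 43 rows carry 37 distinct mnemonics. The rows came from 3 libraries each of Chionodraco hamatus, an icefish without hemoglobin, and of Gymnodraco acuticeps and Trematomus bernacchii, which have red blood. All 9 libraries were made from total RNA of flash-frozen head kidney, where bony fish make most of their blood cells, and the series was titled as a study of how red cell formation is held back in an icefish. The labels give species and tissue with no age, sex or treatment, and they do not say that the libraries came from separate animals. The p-values therefore measure only the spread between these samples, which may be technical.

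These enzymes work as a chain. Superoxide dismutases turn superoxide into hydrogen peroxide, which catalase, glutathione peroxidases and peroxiredoxins then break down. Glutathione and thioredoxin supply the electrons for the peroxidases, glutaredoxins and methionine sulfoxide reductases, glutathione transferases join glutathione to reactive compounds, and heme oxygenase with biliverdin reductase degrades free heme. NRF2 is the transcription factor that switches many of these genes on, and KEAP1 is the adaptor that marks NRF2 for destruction. Red cells of most vertebrates are rich in catalase, peroxiredoxins, glutathione peroxidase and Cu/Zn superoxide dismutase, because hemoglobin in contact with oxygen gives off superoxide.

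Total counts per library ran from 2501922 to 12055675, and values below are in CPM, read counts scaled to library size with TMM factors, which allow a row to be compared between libraries but not with another row, since no gene lengths were used. Libraries of the same species had Spearman correlations of 0.796 to 0.973 over tested rows, against 0.413 to 0.610 between species. Of the markers of other cell types, the summed level of 14 erythroid rows was 192 to 319 CPM in C. hamatus, 27090 to 34840 CPM in G. acuticeps and 69200 to 174800 CPM in T. bernacchii, and 7 of these rows, globin entries and GATA1 among them, were at 0 in C. hamatus. The 8 neutrophil and macrophage rows summed to 1758 to 2839, 1672 to 1842 and 2277 to 2806 CPM in the same order of species. The C. hamatus libraries were unlike each other in adrenal transcripts, with the 5 interrenal rows at 13.9, 26.1 and 24220 CPM and the 10 chromaffin rows at 33.4, 7376 and 3088 CPM in replicates 1, 2 and 3. Those sums were 52.0 to 70.4 and 45.5 to 56.2 CPM in G. acuticeps, and 21.9 to 31.4 and 74.4 to 421.5 CPM in T. bernacchii. The 14 skeletal muscle rows summed to 58.8 to 265 CPM in C. hamatus, 22000 to 34490 CPM in G. acuticeps and 516 to 2686 CPM in T. bernacchii, and the 6 B and T cell rows to 13290 to 47310, 57.3 to 196 and 119 to 320 CPM. A row is an entry of another organism, so reads of a given fish gene may fall on different rows in different species, and a row at 0 shows no reads on that entry, not that the gene was silent.

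After low counts were filtered out, 38 of the 43 rows were tested, and 28 had counts in every library. In C. hamatus 7 rows had no count in any library, in G. acuticeps 6 rows and in T. bernacchii 2 rows. Among the tested rows these were 4, 3 and 2 rows, or 10.5%, 7.89% and 5.26%. The shares of all tested rows were 4.77%, 5.93% and 3.84% in the same order. Set against the mean of both red-blooded species, 8 of the 38 tested rows were higher in C. hamatus and 10 were lower by edgeR's quasi-likelihood test at a Benjamini-Hochberg adjusted p under 0.05. Over all 8662 tested rows, 26.5% were higher and 14.3% lower, or 40.8% in either direction, so the 47.4% of the enzyme rows that were called lies close to the table as a whole. Against G. acuticeps, 6 rows were higher and 10 lower, where the table as a whole had 25.1% higher and 16.8% lower and 42.0% called. Against T. bernacchii, 5 rows were higher and 10 lower, where the whole table had 17.6% higher and 14.8% lower and 32.4% called. Between the red-blooded species, 6 rows were higher and 6 lower in G. acuticeps relative to T. bernacchii, with 13.1% higher, 18.3% lower and 31.4% called in the whole table. The comparisons with C. hamatus share its 3 libraries and are not independent of each other.

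In both C. hamatus pairs, 2 rows were called higher and 7 lower, against 10.1% and 7.87% of all tested rows (18.0% in either direction). A further row, heme oxygenase HMOX2, was called in opposite ways (2.63% of the tested enzyme rows, against 1.8% of all tested rows). Of the 2 higher rows, GSTK1_HUMAN passed the low-count filter through C. hamatus alone and could only be called higher there. In none of the 4 comparisons were 14 of the 38 rows called, against 40.5% of all tested rows. The median log2 fold change of the tested enzyme rows was -0.15 against the mean of the other species, -0.48 against G. acuticeps and -0.25 against T. bernacchii, where the medians of all tested rows were 0.20, 0.15 and 0.02. With rows at 0 set to their bound, the first of these medians was -0.28 for the enzymes and 0.17 for all rows. All 3 C. hamatus libraries lay above all 6 others in 3 enzyme rows and below them in 10, and such separation was seen in 13.9% and 11.3% of all tested rows (25.2% together). The rows above were GPX1_MACFU, GSTK1_HUMAN and MSRA_BOVIN, and the rows below were SODC_DANRE, CATA_DANRE, GPX1_BOVIN, GLRX3_DANRE, GSH0_BOVIN, GSHB_RAT, GSTA3_CHICK, GSTM5_MOUSE, BIEA_MOUSE and BLVRB_HUMAN. Taken in pairs, C. hamatus lay wholly above G. acuticeps in 8 rows and wholly below it in 13 (57.3% of all tested rows did not overlap in that pair), and wholly above T. bernacchii in 6 rows and wholly below it in 13 (43.7%). G. acuticeps lay wholly above T. bernacchii in 12 rows and wholly below it in 7 (51.9%). In bulk tissue, fewer cells of a type and less RNA per cell cannot be told apart, and this holds for every row below. The members together took 0.379 to 0.644% of the counts in C. hamatus, 0.516 to 0.588% of those in G. acuticeps and 0.366 to 0.385% of those in T. bernacchii.

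**Figure D1:**
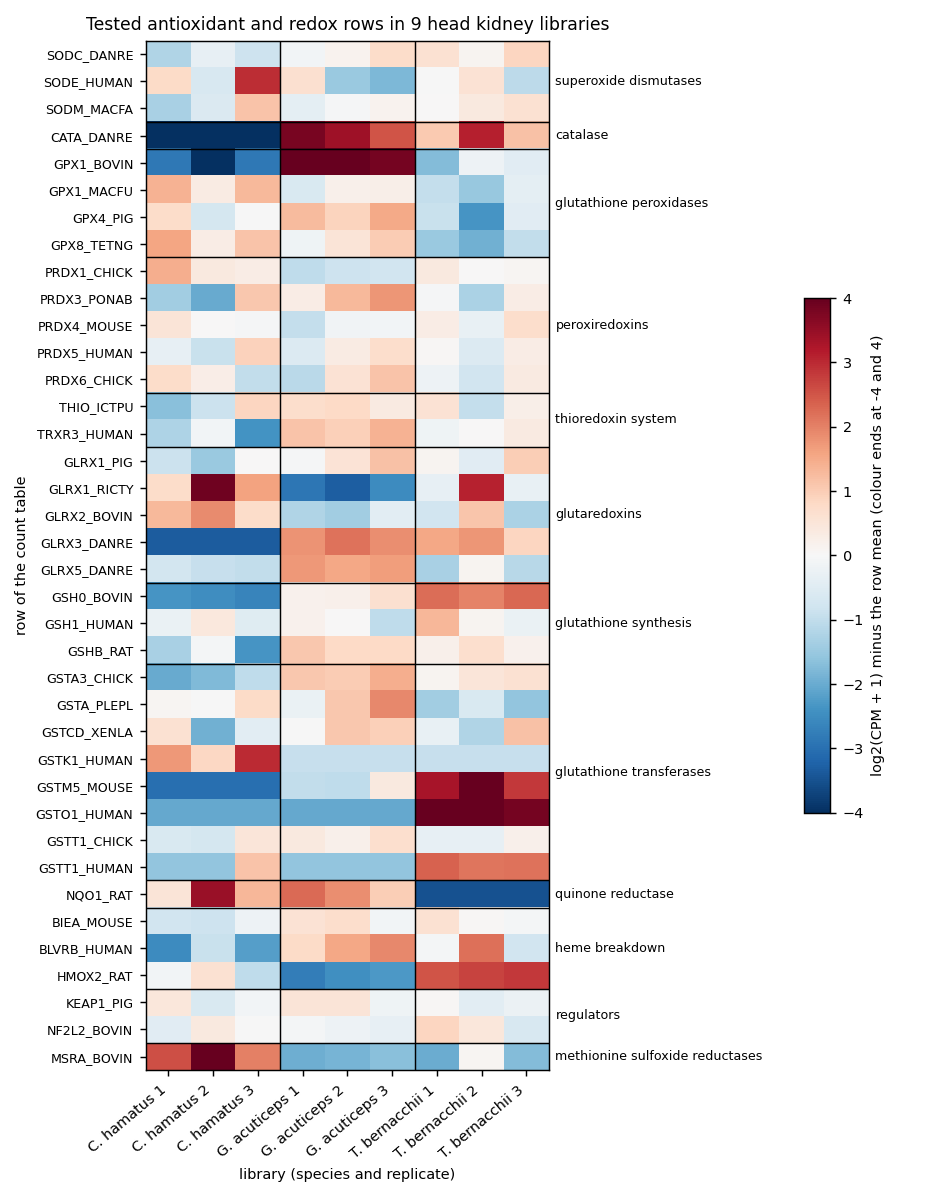
Level of the 38 tested rows in each of the 9 libraries, as log2(CPM + 1) minus the row mean, with libraries in columns (C. hamatus, G. acuticeps, T. bernacchii, replicates 1 to 3) and rows grouped by protein family. The catalase, GLRX3, GSTM5 and GPX1_BOVIN rows are blue in all 3 C. hamatus libraries, MSRA_BOVIN and GSTK1_HUMAN are red there, and the regulators and most peroxiredoxins are pale throughout.

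**Figure D2:**
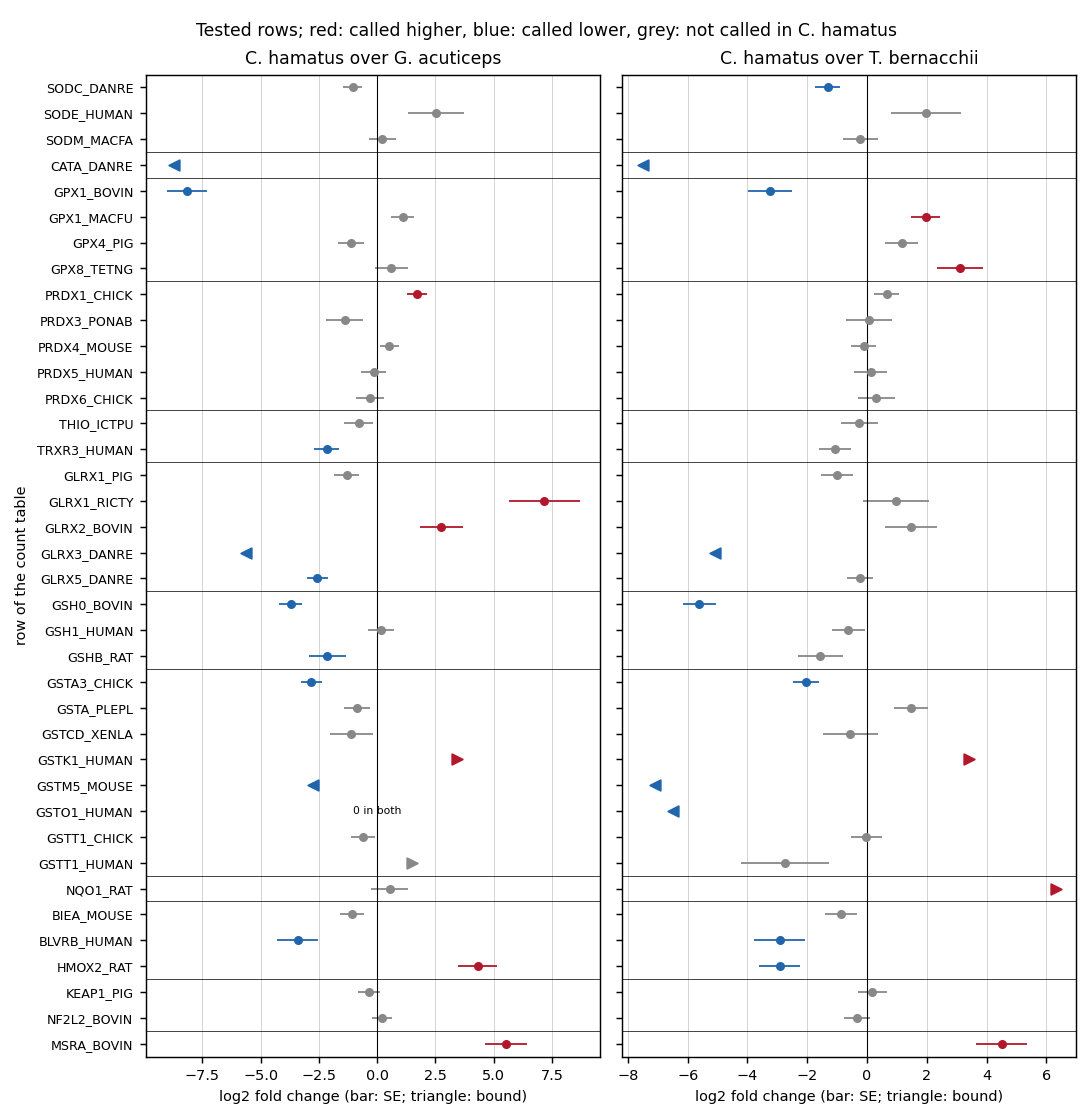
Log2 fold change of each tested row in C. hamatus over G. acuticeps (left) and over T. bernacchii (right), with bars of 1 SE; triangles are bounds for rows at 0 in a species, and colour shows the call at an adjusted p under 0.05. Of the 38 rows, 6 are red and 10 blue on the left and 5 red and 10 blue on the right.

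Superoxide dismutases gave 3 rows, of which the cytosolic Cu/Zn enzyme was lower in C. hamatus and the others were not called. SODC_DANRE, the Cu/Zn enzyme that is abundant in red cells, had 72.6, 135.0 and 95.7 CPM in C. hamatus, 158, 186 and 285 CPM in G. acuticeps, and 260.0, 184 and 308 CPM in T. bernacchii. Every C. hamatus library was below every other library, and the red-blooded species overlapped. The log2 fold change was -1.31 against T. bernacchii (SE 0.41, adjusted p = 0.0333) and -1.18 against the mean of both (SE 0.37, adjusted p = 0.0274), while the -1.05 against G. acuticeps missed the threshold (SE 0.41, adjusted p = 0.0612). The call against the mean was lost without C. hamatus replicate 1 or 3, G. acuticeps replicate 2 or 3, or T. bernacchii replicate 3, with log2 fold changes of -1.02 to -1.26 and adjusted p of 0.0527 to 0.0910. The call against T. bernacchii was lost without C. hamatus replicate 1 or 3, G. acuticeps replicate 2, or T. bernacchii replicate 1 or 3, at -1.09 to -1.30 and adjusted p of 0.0671 to 0.118, and the call against G. acuticeps was gained without C. hamatus replicate 2 or T. bernacchii replicate 2 (adjusted p = 0.0484 and 0.0455).

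SODM_MACFA, the mitochondrial manganese enzyme, averaged 60.9 ± 55.1 CPM in C. hamatus, 52.2 ± 9.57 CPM in G. acuticeps and 71.0 ± 14.8 CPM in T. bernacchii (SD, n = 3 each) and was not called. SODE_HUMAN, the secreted extracellular enzyme, averaged 20.3 ± 24.3, 3.60 ± 4.44 and 5.23 ± 3.19 CPM in the same order (SD, n = 3 each). In both rows the highest library was C. hamatus replicate 3, at 123.9 CPM for SODM and 48.1 CPM for SODE, the library that also held the high interrenal sum. The part of the adrenal transcripts in these values was not tested. SODE was called against the mean without C. hamatus replicate 2 (2.76, adjusted p = 0.0454) or without G. acuticeps replicate 1 (3.11, adjusted p = 0.0277), and against G. acuticeps without G. acuticeps replicate 1 (4.26, adjusted p = 0.0425).

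Catalase, which splits hydrogen peroxide into water and oxygen, was counted in the red-blooded species and not in C. hamatus. CATA_DANRE had 0 counts in each of the 3 C. hamatus libraries, against 448, 335 and 184 CPM in G. acuticeps and 65.3, 280.3 and 72.4 CPM in T. bernacchii. The other species overlapped, with G. acuticeps at the higher average (322.5 ± 132 CPM, against 139 ± 122 CPM in T. bernacchii; SD, n = 3 each; adjusted p = 0.197). Against a floor of 3 counts per library, C. hamatus was below G. acuticeps by at least 419-fold and below T. bernacchii by at least 181-fold (edgeR adjusted p = 0.000188 and 0.000355). Without T. bernacchii replicate 2 the second bound was 89.5-fold, and the difference between the red-blooded species was then called (log2 fold change 2.23, adjusted p = 0.0174). With C. hamatus replicate 1 alone, the library without high adrenal sums, the adjusted p was 0.00355 and 0.00669. Reads of a C. hamatus catalase that were assigned to rows of another name are not traced here. The erythroid sum, also lowest in C. hamatus, moves with this difference between C. hamatus and the other species. Between the red-blooded species it ran against the catalase averages, at 27090 to 34840 CPM in G. acuticeps and 69200 to 174800 CPM in T. bernacchii. Within T. bernacchii, replicate 2 had the lowest erythroid sum and the highest catalase value. Within G. acuticeps, replicate 1 had the highest of both and replicate 3 the lowest of both. The skeletal muscle sum was also lowest in C. hamatus (58.8 to 265 CPM). It was 516 to 2686 CPM in T. bernacchii and 22000 to 34490 CPM in G. acuticeps, the order of the catalase averages. Within T. bernacchii, replicate 2 had the highest muscle sum, and within G. acuticeps replicate 1, the highest in catalase, had the lowest. The B and T cell sum was highest in C. hamatus. The parts of these cell types in the catalase result were not tested.

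Glutathione peroxidases, which reduce peroxides with glutathione, had no common direction. GPX1_BOVIN, an entry of the cytosolic selenoenzyme GPX1, had 1.62, 0 and 1.59 CPM in C. hamatus, 378, 352 and 266 CPM in G. acuticeps, and 4.74, 15.5 and 12.9 CPM in T. bernacchii. The species did not overlap, and G. acuticeps stood far above the others. C. hamatus was lower than G. acuticeps (log2 fold change -8.15, SE 0.87, adjusted p = 0.000135) and T. bernacchii (-3.24, SE 0.75, adjusted p = 0.00763), and G. acuticeps was higher than T. bernacchii (4.91, SE 0.73, adjusted p = 0.000714). With C. hamatus replicate 1 alone the log2 fold change against T. bernacchii was -2.72. The call against T. bernacchii held when any single library was left out. Over all alternatives the row was called in that pair, in either direction, in 17 of 19, and the adjusted p reached 0.0680 among the others.

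The other entry with the GPX1 mnemonic went the other way. GPX1_MACFU had 1501, 708 and 1409 CPM in C. hamatus, 375, 657 and 668 CPM in G. acuticeps, and 294, 199 and 437 CPM in T. bernacchii. The C. hamatus libraries lay above all others, by the smallest margin in replicate 2. The log2 fold change was 1.96 against T. bernacchii (SE 0.49, adjusted p = 0.0111) and 1.09 against G. acuticeps (SE 0.47, adjusted p = 0.0879), and the call against T. bernacchii was lost without T. bernacchii replicate 1 (1.91, adjusted p = 0.0510). Summed over both entries, GPX1 averaged 1207 ± 434 CPM in C. hamatus, 899 ± 132 CPM in G. acuticeps and 321 ± 119 CPM in T. bernacchii (SD, n = 3 each). In a fit on summed mnemonics the log2 fold change of GPX1 in C. hamatus was 0.43 against G. acuticeps (SE 0.44, adjusted p = 0.467), 1.91 against T. bernacchii (SE 0.45, adjusted p = 0.00955) and 1.17 against the mean (SE 0.37, adjusted p = 0.0283). The direction of the GPX1_BOVIN row therefore did not hold for the reads of both entries together. Whether both entries hold reads of the same fish gene is not known.

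GPX8_TETNG, an endoplasmic reticulum peroxidase, had 17.9, 6.77 and 13.1 CPM in C. hamatus, 4.67, 8.04 and 11.9 CPM in G. acuticeps, and 1.25, 0.673 and 2.23 CPM in T. bernacchii. The T. bernacchii libraries were below all others, and C. hamatus overlapped with G. acuticeps. It was higher in C. hamatus than in T. bernacchii (3.11, SE 0.76, adjusted p = 0.0106) and higher in G. acuticeps than in T. bernacchii (2.497, SE 0.75, adjusted p = 0.0276). That call between the red-blooded species was lost without G. acuticeps replicate 2 or 3 or T. bernacchii replicate 1 or 2, at 2.19 to 2.66 and adjusted p of 0.0610 to 0.101, while without T. bernacchii replicate 3 it was 3.15 (adjusted p = 0.0297). GPX4_PIG, the enzyme that reduces lipid hydroperoxides within membranes, averaged 482 ± 234 CPM in C. hamatus, 1052 ± 225 CPM in G. acuticeps and 214 ± 120.2 CPM in T. bernacchii (SD, n = 3 each). It was called between the red-blooded species alone among the pairs tested (2.30, SE 0.57, adjusted p = 0.0117).

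Peroxiredoxins, thiol peroxidases most of which take their electrons from thioredoxin, gave 5 rows, with no PRDX2 row among them. Of the 5 rows, 4 were called in none of the comparisons, as were 40.5% of all tested rows. PRDX5_HUMAN, the peroxiredoxin of mitochondria, peroxisomes and cytosol, had 720.1, 484 and 1695 CPM in C. hamatus, 619.5, 1132 and 1475 CPM in G. acuticeps, and 927, 616 and 1117 CPM in T. bernacchii. All species overlapped, and the log2 fold change against the mean of the others was -0.015 (SE 0.48, adjusted p = 0.998), of a size at which its sign turned under several settings. PRDX4_MOUSE, of the endoplasmic reticulum, and PRDX6_CHICK, which also repairs membrane phospholipids, had log2 fold changes between -0.31 and 0.53 in the C. hamatus pairs and were not called.

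PRDX1_CHICK, a cytosolic form, averaged 98.0 ± 47.9 CPM in C. hamatus, 29.8 ± 2.53 CPM in G. acuticeps and 62.3 ± 9.10 CPM in T. bernacchii (SD, n = 3 each). It was higher in C. hamatus relative to G. acuticeps (1.71, SE 0.42, adjusted p = 0.00848) and to the mean of both (1.18, SE 0.34, adjusted p = 0.0189), and was not called against T. bernacchii (0.65, SE 0.41, adjusted p = 0.252). C. hamatus replicate 1 held the highest value, 153 CPM, and without it the call against the mean was lost (0.69, adjusted p = 0.140), while without G. acuticeps replicate 2 the calls against the mean (1.17, adjusted p = 0.0561) and against G. acuticeps (1.64, adjusted p = 0.0515) were lost. PRDX3_PONAB, the mitochondrial form, had 46.6, 29.8 and 263 CPM in C. hamatus, 154, 310.3 and 424 CPM in G. acuticeps, and 120.4, 51.5 and 153 CPM in T. bernacchii. C. hamatus replicate 3 stood far above the other libraries of its species. Without it the row was lower in C. hamatus than the mean (-2.23, adjusted p = 0.0157) and than G. acuticeps (-2.96, adjusted p = 0.00645), where the fit on all libraries gave -0.66 (SE 0.69, adjusted p = 0.477) and -1.39 (SE 0.79, adjusted p = 0.185).

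The thioredoxin system had 3 rows. THIO_ICTPU, thioredoxin itself in a catfish entry, had 46.1, 82.9 and 272 CPM in C. hamatus, 242.5, 261 and 191 CPM in G. acuticeps, and 225, 76.7 and 176 CPM in T. bernacchii. The groups overlapped, and C. hamatus replicate 3 was the highest of all libraries. The row was not called against the mean of the others (-0.52, SE 0.56, adjusted p = 0.488). With C. hamatus replicate 3 left out it was lower against the mean (-1.58, adjusted p = 0.0329) and against G. acuticeps (-1.86, adjusted p = 0.0223). TRXR3_HUMAN, an entry of the reductase that reloads thioredoxin with NADPH, averaged 68.6 ± 50.4 CPM in C. hamatus, 306 ± 47.6 CPM in G. acuticeps and 144 ± 27.7 CPM in T. bernacchii (SD, n = 3 each). It was lower in C. hamatus relative to G. acuticeps (-2.16, SE 0.54, adjusted p = 0.00968) and to the mean (-1.61, SE 0.49, adjusted p = 0.0233). Without C. hamatus replicate 1 the call against the mean was lost (-1.53, adjusted p = 0.0662), and without replicate 2 it was -2.36 and the row was also lower than in T. bernacchii (-1.80, adjusted p = 0.0218). TRXR1_RAT held a count of 1 in all libraries together and was not tested.

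Glutaredoxins, small thiol enzymes that use glutathione, gave 5 rows. GLRX3 and GLRX5 were lower and GLRX1_RICTY and GLRX2 higher in C. hamatus relative to G. acuticeps. GLRX3 was also lower relative to T. bernacchii. Of all tested rows, 42.0% were called against G. acuticeps and 32.4% against T. bernacchii. GLRX3_DANRE, a cytosolic glutaredoxin that carries iron-sulfur clusters, had 0 counts in all 3 C. hamatus libraries, against 33.6, 44.0 and 35.4 CPM in G. acuticeps and 28.4, 32.98 and 17.2 CPM in T. bernacchii. The red-blooded species were close to each other (log2 fold change of G. acuticeps over T. bernacchii 0.53, SE 0.50, adjusted p = 0.458). C. hamatus was below G. acuticeps by at least 49.0-fold and below T. bernacchii by at least 34.1-fold (adjusted p = 0.000135 and 0.000246). With C. hamatus replicate 1 alone the adjusted p was 0.00157 and 0.00293.

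GLRX5_DANRE, the mitochondrial glutaredoxin of iron-sulfur cluster assembly whose loss in zebrafish stops heme synthesis, had 36.4, 31.8 and 30.6 CPM in C. hamatus, 207, 180.1 and 198 CPM in G. acuticeps, and 24.4, 65.6 and 27.6 CPM in T. bernacchii. All G. acuticeps libraries were above all others, and C. hamatus lay within the range of T. bernacchii. It was lower in C. hamatus relative to G. acuticeps (-2.57, SE 0.45, adjusted p = 0.00162), was not called against T. bernacchii (-0.25, SE 0.43, adjusted p = 0.702), and was higher in G. acuticeps than in T. bernacchii (2.32, SE 0.45, adjusted p = 0.00315; 2.91 without T. bernacchii replicate 2).

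The GLRX1 mnemonic was carried by 2 rows, a mammalian and a bacterial entry, which need not be the same protein. GLRX1_RICTY, an entry whose code is that of a bacterium, had 15.3, 142.5 and 29.0 CPM in C. hamatus, 0.311, 0 and 0.712 CPM in G. acuticeps, and 6.73, 82.1 and 6.99 CPM in T. bernacchii. Replicate 2 was the highest library in both C. hamatus and T. bernacchii, and G. acuticeps was near 0. C. hamatus was higher than G. acuticeps (7.17, SE 1.52, adjusted p = 0.00404; 5.70 when C. hamatus replicate 2 was left out and 8.48 when G. acuticeps replicate 3 was), and G. acuticeps lower than T. bernacchii (-6.20, SE 1.47, adjusted p = 0.00937; -3.99 without T. bernacchii replicate 2, -5.58 without G. acuticeps replicate 2 and -7.44 without G. acuticeps replicate 3). Without T. bernacchii replicate 2 the row was also higher in C. hamatus than in T. bernacchii (3.15, adjusted p = 0.0454), where all libraries gave 0.97 (adjusted p = 0.544). GLRX1_PIG averaged 80.8 ± 42.6 CPM in C. hamatus, 200.5 ± 84.7 CPM in G. acuticeps and 161 ± 82.5 CPM in T. bernacchii (SD, n = 3 each) and was not called, though without C. hamatus replicate 3 it was lower against the mean (-1.65, adjusted p = 0.0365) and against G. acuticeps (-1.82, adjusted p = 0.0312). Without T. bernacchii replicate 2 it was lower against the mean (-1.31, adjusted p = 0.0462). Summed over both rows, the log2 fold change in C. hamatus was -0.49 against G. acuticeps (SE 0.46, adjusted p = 0.425) and -0.43 against T. bernacchii (SE 0.46, adjusted p = 0.510). The higher value of GLRX1_RICTY therefore did not hold for the reads of both rows together. Whether both rows hold reads of the same fish gene is not known, so the sum cannot decide the direction of GLRX1_RICTY by itself.

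GLRX2_BOVIN, a mitochondrial glutaredoxin, averaged 14.4 ± 6.18 CPM in C. hamatus, 2.06 ± 1.14 CPM in G. acuticeps and 5.24 ± 5.68 CPM in T. bernacchii (SD, n = 3 each). It was higher in C. hamatus relative to G. acuticeps (2.76, SE 0.92, adjusted p = 0.0345) and to the mean (2.12, SE 0.72, adjusted p = 0.0378). The call against G. acuticeps was lost without any of C. hamatus replicates 1 and 2 or the 3 G. acuticeps libraries, at 2.38 to 3.29 and adjusted p of 0.0569 to 0.132. The call against the mean was lost without C. hamatus replicate 1 or 2, G. acuticeps replicate 1 or 2, or T. bernacchii replicate 1 or 3, at 1.74 to 2.14 and adjusted p of 0.0572 to 0.143. Without T. bernacchii replicate 2 the row was also higher than in T. bernacchii (2.85, adjusted p = 0.0249).

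Glutathione synthesis had its lowest values in C. hamatus in 2 of the 3 tested rows. Of all tested rows, 11.3% had every C. hamatus library below all others. GSH0_BOVIN, the regulatory subunit of glutamate-cysteine ligase, which sets the pace of glutathione synthesis, had 1.16, 1.02 and 0.794 CPM in C. hamatus, 11.5, 11.8 and 16.3 CPM in G. acuticeps, and 51.1, 43.1 and 54.0 CPM in T. bernacchii. The species formed 3 steps with no overlap. C. hamatus was lower than G. acuticeps (-3.72, SE 0.51, adjusted p = 0.000428) and T. bernacchii (-5.61, SE 0.54, adjusted p = 0.000138), and G. acuticeps was lower than T. bernacchii (-1.90, SE 0.44, adjusted p = 0.00866), a call lost without G. acuticeps replicate 2 (-1.69, adjusted p = 0.0762). The C. hamatus values rest on 12 reads in all, where G. acuticeps had 244 reads and T. bernacchii 889.

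GSH1_HUMAN, the catalytic subunit of the same enzyme, averaged 29.9 ± 10.7 CPM in C. hamatus, 26.7 ± 10.6 CPM in G. acuticeps and 46.0 ± 29.0 CPM in T. bernacchii (SD, n = 3 each). It was not called, with log2 fold changes of 0.16 (SE 0.56, adjusted p = 0.848) against G. acuticeps and -0.63 (SE 0.56, adjusted p = 0.432) against T. bernacchii. GSHB_RAT, glutathione synthetase, the enzyme of the last step, averaged 3.79 ± 3.60 CPM in C. hamatus, 16.3 ± 2.03 CPM in G. acuticeps and 11.01 ± 2.42 CPM in T. bernacchii (SD, n = 3 each). Its call against G. acuticeps was close to the threshold (-2.13, SE 0.78, adjusted p = 0.0481) and was lost without C. hamatus replicate 1 or 3, any G. acuticeps replicate or T. bernacchii replicate 1, at -1.65 to -2.27 and adjusted p of 0.0563 to 0.109. Without C. hamatus replicate 2 it was -3.19 against G. acuticeps and the row was also lower than T. bernacchii (-2.61, adjusted p = 0.0310) and the mean (-2.90, adjusted p = 0.0149). GSHB_MACFA, a further entry of the synthetase, had 0 reads in C. hamatus, 41 reads in G. acuticeps and 7 reads in T. bernacchii and was not tested. With the entries of GSHB summed, the log2 fold change was -2.32 against G. acuticeps (adjusted p = 0.0348) and -1.61 against T. bernacchii (adjusted p = 0.134).

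**Figure D3:**
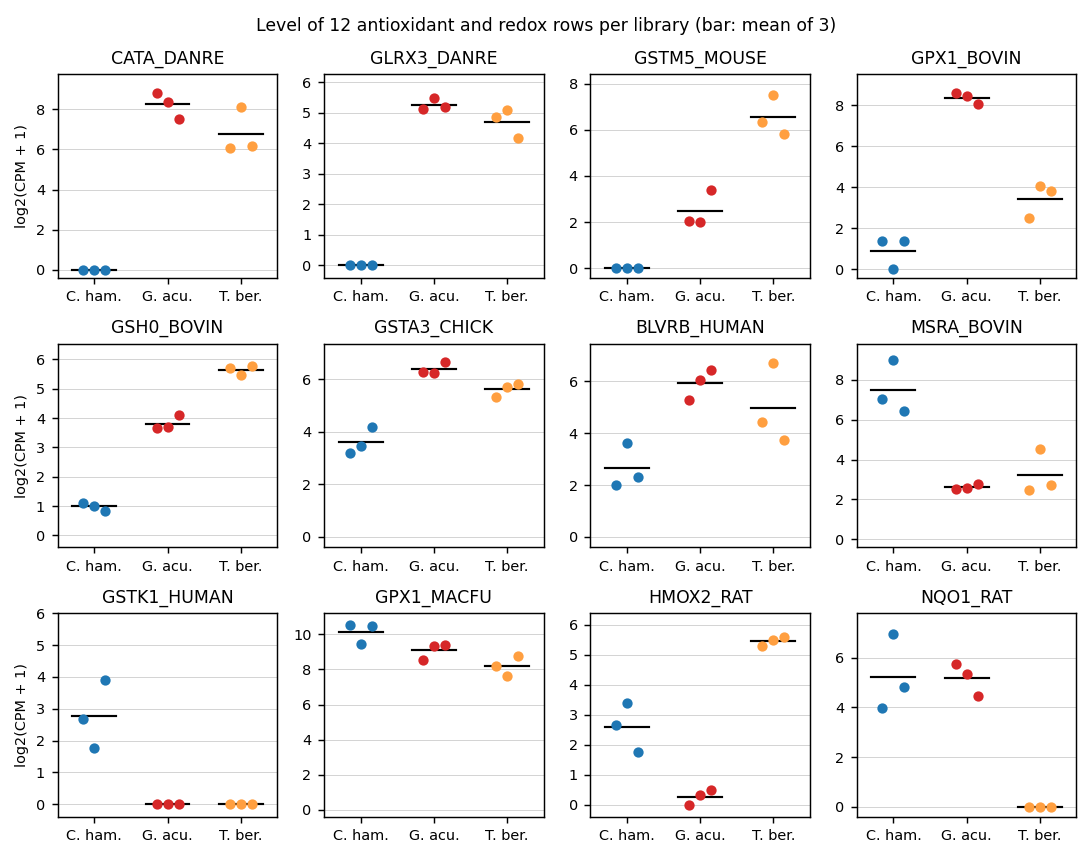
Level of 12 rows in each library as log2(CPM + 1), with C. hamatus, G. acuticeps and T. bernacchii from left to right, a point per library and a bar at the mean of the 3 log values. Catalase, GLRX3 and GSTM5 sit at 0 in all C. hamatus libraries, GSH0 forms 3 separate steps, and MSRA and GSTK1 are higher in C. hamatus.

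Glutathione transferases, which couple glutathione to reactive compounds, were mixed. Of 8 tested rows, 2 were lower and 1 higher in both C. hamatus pairs, against 7.87% and 10.1% of all tested rows. GSTA3_CHICK, an alpha class enzyme that also reduces lipid hydroperoxides, had 8.12, 9.81 and 17.1 CPM in C. hamatus, 76.0, 73.1 and 100.3 CPM in G. acuticeps, and 38.6, 50.5 and 55.3 CPM in T. bernacchii. No C. hamatus library reached any other. The log2 fold change was -2.83 against G. acuticeps (SE 0.44, adjusted p = 0.000854) and -2.04 against T. bernacchii (SE 0.43, adjusted p = 0.00505), and G. acuticeps was not called against T. bernacchii (0.79, SE 0.41, adjusted p = 0.173).

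GSTM5_MOUSE, of the mu class, had 0 counts in all 3 C. hamatus libraries, 3.11, 3.02 and 9.46 CPM in G. acuticeps, and 78.8, 183 and 55.7 CPM in T. bernacchii. The species did not overlap. C. hamatus was below G. acuticeps by at least 6.76-fold (3.98-fold without G. acuticeps replicate 3) and below T. bernacchii by at least 137-fold (87.5-fold without T. bernacchii replicate 2), with adjusted p of 0.00211 and 0.000361. G. acuticeps was lower than T. bernacchii (-4.30, SE 0.74, adjusted p = 0.00298; -5.01 when G. acuticeps replicate 3 was left out and -3.65 when T. bernacchii replicate 2 was).

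GSTK1_HUMAN, the kappa class enzyme of mitochondria and peroxisomes, had 5.33, 2.37 and 13.9 CPM in C. hamatus and 0 counts in every G. acuticeps and T. bernacchii library. C. hamatus was at least 10.8-fold higher than G. acuticeps and at least 10.6-fold higher than T. bernacchii (adjusted p = 0.00769 and 0.00956), from 100 reads in all. The row passed the low-count filter through C. hamatus alone, so the direction of these calls was fixed in advance. Without C. hamatus replicate 3 the bounds were 5.80-fold and 5.64-fold, and with C. hamatus replicate 1 alone neither call held (adjusted p = 0.0792 and 0.0896). GSTO1_HUMAN, of the omega class, was found in T. bernacchii alone, at 69.3, 81.8 and 57.7 CPM, with 0 counts in every C. hamatus and G. acuticeps library. C. hamatus was below T. bernacchii by at least 90.5-fold and G. acuticeps below it by at least 105-fold (adjusted p = 0.000493 and 0.000326). This row passed the filter through T. bernacchii alone, so the direction of its calls was likewise fixed in advance.

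Theta class GSTT1 was again split by entry. GSTT1_HUMAN had reads in C. hamatus replicate 3 alone (5.56 CPM), none in G. acuticeps, and 14.2, 12.1 and 12.3 CPM in T. bernacchii. It was at least 19.4-fold lower in G. acuticeps than in T. bernacchii (adjusted p = 0.0170), a call lost without any of the 3 G. acuticeps libraries (adjusted p = 0.0505 to 0.0639). Only T. bernacchii had reads in enough libraries for the low-count filter, so the direction of this call was fixed in advance. Without C. hamatus replicate 3 the row was called lower in C. hamatus than in T. bernacchii (adjusted p = 0.00618), a direction fixed in the same way. Without C. hamatus replicate 1 or 2 it was called higher in C. hamatus than in G. acuticeps (adjusted p = 0.0270 and 0.0357). GSTT1_CHICK averaged 15.1 ± 7.92 CPM in C. hamatus, 23.2 ± 3.82 CPM in G. acuticeps and 15.4 ± 3.56 CPM in T. bernacchii (SD, n = 3 each) and was not called. Summed over both entries, GSTT1 had log2 fold changes of -0.45 in C. hamatus against G. acuticeps (adjusted p = 0.517) and -0.29 in G. acuticeps against T. bernacchii (adjusted p = 0.708).

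Of the other transferase rows, GSTA_PLEPL, a transferase entry from the plaice, averaged 144 ± 46.6 CPM in C. hamatus, 261 ± 174 CPM in G. acuticeps and 52.3 ± 19.9 CPM in T. bernacchii (SD, n = 3 each). It was higher in G. acuticeps than in T. bernacchii (2.32, SE 0.58, adjusted p = 0.0116) and not called for C. hamatus (1.47, adjusted p = 0.0685, against T. bernacchii). Without G. acuticeps replicate 1 or 3 or T. bernacchii replicate 2 it was also higher in C. hamatus than in T. bernacchii (1.46 to 1.80, adjusted p = 0.0411 to 0.04997). GSTCD_XENLA, a protein with a transferase-like domain, had log2 fold changes of -1.10 and -0.55 in the C. hamatus pairs and was not called. GSTCD_MOUSE, with 14 reads in C. hamatus, 0 reads in G. acuticeps and 2 reads in T. bernacchii, was not tested.

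NQO1, the quinone reductase that is a classic NRF2 target, had its lowest counts in T. bernacchii. NQO1_RAT had 14.8, 121.5 and 27.0 CPM in C. hamatus, 52.6, 39.2 and 20.9 CPM in G. acuticeps, and 0 counts in all T. bernacchii libraries. C. hamatus and G. acuticeps overlapped (log2 fold change 0.54, SE 0.80, adjusted p = 0.625). C. hamatus was at least 79.8-fold higher than T. bernacchii (30.7-fold without C. hamatus replicate 2, its highest library and the one with the highest chromaffin sum), and G. acuticeps at least 55.0-fold higher (adjusted p = 0.00107 and 0.00106). NQO1_CAVPO, a second entry that was not tested, had 65 reads in C. hamatus, 3 reads in G. acuticeps and 2 reads in T. bernacchii. Its depth-scaled ratio was 30.0 against G. acuticeps (exact 95% interval 9.81 to 149) and 45.7 against T. bernacchii (12.1 to 385), which covers counting error only, and C. hamatus replicate 1 had no read of it.

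Heme breakdown was covered by 3 rows. HMOX2_RAT, the constitutive heme oxygenase that opens the heme ring, had 5.33, 9.48 and 2.38 CPM in C. hamatus, 0, 0.251 and 0.407 CPM in G. acuticeps, and 38.4, 44.1 and 47.4 CPM in T. bernacchii. The 3 species did not overlap, with C. hamatus between the others. It was higher in C. hamatus relative to G. acuticeps (4.31, SE 0.83, adjusted p = 0.00244; 5.10 without G. acuticeps replicate 3) and lower relative to T. bernacchii (-2.93, SE 0.69, adjusted p = 0.00899). G. acuticeps was lower than T. bernacchii (-7.24, SE 0.89, adjusted p = 0.000265; -7.99 without G. acuticeps replicate 3), and the 5 reads in G. acuticeps set the size of these folds.

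Both biliverdin reductases had their lowest libraries in C. hamatus. BLVRB_HUMAN, which reduces biliverdin and flavins and is abundant in mammalian red cells, had 3.02, 11.2 and 3.97 CPM in C. hamatus, 37.7, 65.8 and 85.5 CPM in G. acuticeps, and 20.7, 103.6 and 12.4 CPM in T. bernacchii. C. hamatus replicate 2 came close to the lowest T. bernacchii library, and no C. hamatus library reached any other. The red-blooded species overlapped. The log2 fold change was -3.40 against G. acuticeps (SE 0.88, adjusted p = 0.0110) and -2.92 against T. bernacchii (SE 0.86, adjusted p = 0.0252). The call against T. bernacchii was lost without C. hamatus replicate 1 (-2.54, adjusted p = 0.0752), C. hamatus replicate 3 (-2.69, adjusted p = 0.0718) or T. bernacchii replicate 2 (-1.49, adjusted p = 0.0952). When C. hamatus replicate 2 was left out the values were -4.18 and -3.68. With C. hamatus replicate 1 alone neither pair was called (adjusted p = 0.0601 and 0.0928). The erythroid sum was also lower in C. hamatus than in the other species, but within T. bernacchii it ran the other way: replicate 2 had the lowest erythroid sum (69200 CPM) and the highest BLVRB value, and replicate 3 the highest sum (174800 CPM) and the lowest BLVRB value. The skeletal muscle sum was also lowest in C. hamatus. Within T. bernacchii the muscle sum was highest in replicate 2 and lowest in replicate 1, and within G. acuticeps it rose from replicate 1 to replicate 3, as BLVRB did. The parts of these cell types in the result were not tested.

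BIEA_MOUSE, biliverdin reductase A, which makes bilirubin, had 7.42, 7.11 and 11.5 CPM in C. hamatus, 20.5, 22.4 and 12.4 CPM in G. acuticeps, and 20.9, 13.8 and 12.7 CPM in T. bernacchii. Every C. hamatus library was below every other, by a narrow margin, and the differences missed the threshold (-1.08, SE 0.53, adjusted p = 0.129 against G. acuticeps; -0.86, SE 0.53, adjusted p = 0.245 against T. bernacchii).

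The regulators were not called in any comparison, as was the case for 40.5% of all tested rows. NF2L2_BOVIN, the NRF2 entry, had 89.5, 161 and 123.5 CPM in C. hamatus, 118, 108 and 97.5 CPM in G. acuticeps, and 224, 171 and 79.1 CPM in T. bernacchii. KEAP1_PIG had 31.1, 14.2 and 20.7 CPM in C. hamatus, 32.1, 31.9 and 19.5 CPM in G. acuticeps, and 22.9, 16.5 and 18.7 CPM in T. bernacchii. All species overlapped in both rows. Against the mean of the others, the log2 fold change in C. hamatus was -0.07 for NF2L2 (SE 0.38, adjusted p = 0.919) and -0.08 for KEAP1 (SE 0.41, adjusted p = 0.911). These SEs leave differences of about that size unresolved, and NRF2 activity is mainly set by protein stability, which counts do not show.

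Methionine sulfoxide reductases repair oxidized methionine. MSRA_BOVIN, which acts on the S form, had 129.9, 505 and 87.0 CPM in C. hamatus, 4.67, 5.03 and 5.90 CPM in G. acuticeps, and 4.49, 22.2 and 5.63 CPM in T. bernacchii. Every C. hamatus library was above every other, and replicate 2 of both C. hamatus and T. bernacchii stood out upward. It was higher in C. hamatus relative to G. acuticeps (5.52, SE 0.90, adjusted p = 0.00108) and T. bernacchii (4.50, SE 0.85, adjusted p = 0.00305). Without C. hamatus replicate 2 the values were 4.36 (adjusted p = 0.00228) and 3.35 (adjusted p = 0.00761), with C. hamatus replicate 1 alone 4.63 (adjusted p = 0.00513) and 3.65 (adjusted p = 0.0158), and without T. bernacchii replicate 2 it was 5.54 against T. bernacchii (adjusted p = 0.00190). MSRB2_DANRE, the mitochondrial enzyme for the R form, had 3 reads in all, from T. bernacchii, and was not tested.

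**Figure D4:**
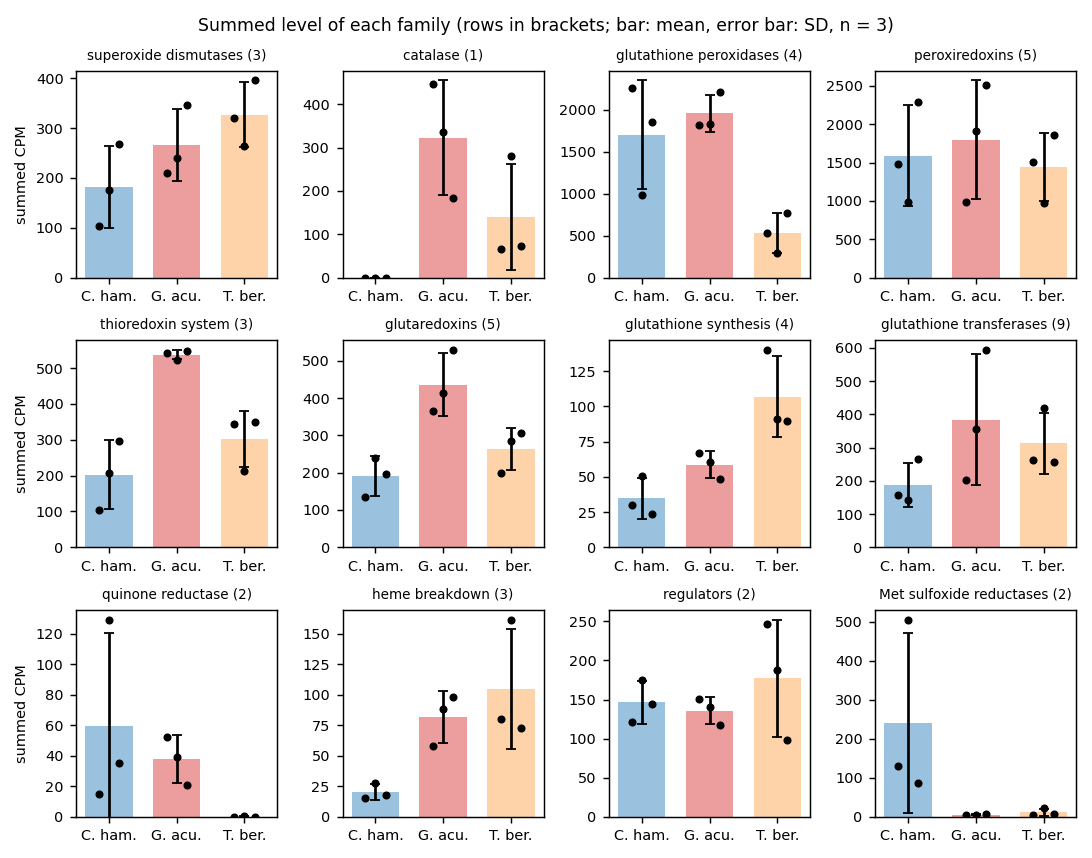
Summed CPM of each family's rows, including untested rows, in C. hamatus, G. acuticeps and T. bernacchii (left to right in each panel), with a point per library, bars at the mean and error bars of 1 SD (n = 3). Heme breakdown is at 15.8 to 27.7 CPM in C. hamatus and above 58 CPM in all other libraries, and the thioredoxin system is at 523 to 548 CPM in G. acuticeps, above all other libraries.

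Because reads of a protein can fall on different entries, family sums were set beside single rows, as a description without a test. Most families also pool different proteins, and no gene lengths were used, so a sum mainly follows its rows with the most reads. Heme breakdown summed to 15.8, 27.7 and 17.9 CPM in C. hamatus, 58.2, 88.4 and 98.4 CPM in G. acuticeps and 80.0, 161.5 and 72.5 CPM in T. bernacchii, so the C. hamatus libraries lay below all others. Of all tested rows taken singly, 11.3% did so. The sum does not show HMOX2_RAT, which was higher in C. hamatus than in G. acuticeps (log2 fold change 4.31). Glutathione synthesis averaged 34.6 ± 14.3 CPM in C. hamatus, 58.7 ± 9.35 CPM in G. acuticeps and 107 ± 28.8 CPM in T. bernacchii (SD, n = 3 each), with a C. hamatus library at 50.8 CPM above the lowest of G. acuticeps at 48.5 CPM. Glutathione peroxidases were lowest in T. bernacchii, at 1702 ± 648 CPM in C. hamatus, 1959 ± 221 CPM in G. acuticeps and 537 ± 237 CPM in T. bernacchii (SD, n = 3 each). Peroxiredoxins overlapped in all species, at 1591 ± 657, 1801 ± 770 and 1447 ± 442 CPM (SD, n = 3 each). In the methionine sulfoxide reductases (241 ± 230.1 CPM) and NQO1 (59.8 ± 61.0 CPM; SD, n = 3 each) the SD within C. hamatus was close to the mean, with replicate 2 the highest library in both.

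Other redox genes were described from 7 lists of partners, fuel and repair enzymes, with 91 rows and 73 tested. Of these, 16 were higher and 16 lower in C. hamatus relative to G. acuticeps, and 8 higher and 14 lower relative to T. bernacchii. G. acuticeps had 7 higher and 16 lower than T. bernacchii, and without G. acuticeps replicate 1, 2 or 3 the total of 23 was 12, 9 and 13. The whole-table counts without those libraries are not given here, so whether the lists fell more than the table is not shown. In the fit on all libraries, the totals for the 3 pairs were 43.8%, 30.1% and 31.5% of the tested rows, against 42.0%, 32.4% and 31.4% of the whole table. Called the same way in both C. hamatus pairs were 5 higher and 8 lower, or 17.8% of the tested rows, close to the 18.0% of the whole table. Against the mean of both red-blooded species, 15 were higher and 14 lower, 39.7% in all, close to the 40.8% of the whole table (26.5% higher and 14.3% lower). The counts of the lists below are to be read against those last shares.

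Of the NADPH supply list, 4 of 13 tested rows were called against the mean of the others, 1 higher and 3 lower (30.8%, against 40.8% of all tested rows). TKT_BOVIN, transketolase of the pentose phosphate pathway, averaged 738 ± 345 CPM in C. hamatus, 1335 ± 488 CPM in G. acuticeps and 3147 ± 505 CPM in T. bernacchii (SD, n = 3 each) and was lower in C. hamatus than the mean (-1.47, SE 0.45, adjusted p = 0.0244). That call was lost without C. hamatus replicate 1 or 3 or G. acuticeps replicate 2 or 3, at -1.22 to -1.45 and adjusted p of 0.0501 to 0.0700. It was lower relative to T. bernacchii (-2.09, SE 0.50, adjusted p = 0.00971) and not called against G. acuticeps (-0.86, SE 0.49, adjusted p = 0.186). The mitochondrial transhydrogenase, which makes NADPH from NADH, was split between NNTM_BOVIN (3.03, SE 0.53, adjusted p = 0.00136) and NNTM_HUMAN (-5.85, SE 1.19, adjusted p = 0.00306). NNTM_HUMAN was -4.28 without T. bernacchii replicate 3, and in pairs -8.66 against G. acuticeps (SE 1.32, adjusted p = 0.000752) and -3.03 against T. bernacchii (SE 1.21, adjusted p = 0.0799), the last called without T. bernacchii replicate 1 or 2 (-3.58 and -3.45, adjusted p = 0.0164 and 0.0490). NNTM_HUMAN passed the low-count filter through G. acuticeps alone, so the direction of its call against G. acuticeps was fixed in advance. The mnemonic summed over rows was not called against the mean (0.85, SE 0.41, adjusted p = 0.125) or against G. acuticeps (-0.33, SE 0.49, adjusted p = 0.615). The sum was higher in C. hamatus than in T. bernacchii (2.04, SE 0.51, adjusted p = 0.0118). G. acuticeps was also higher than T. bernacchii (2.38, SE 0.51, adjusted p = 0.00606).

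Of the thioredoxin and disulfide partners, 4 of 15 tested rows were higher and 2 lower against the mean (where 40.8% of all tested rows were called). TXND5_MOUSE, a protein disulfide isomerase of the endoplasmic reticulum, had 0 counts in C. hamatus and averaged 180.5 ± 14.3 CPM in G. acuticeps and 147 ± 103.5 CPM in T. bernacchii (SD, n = 3 each), which puts C. hamatus at least 235-fold and 191-fold lower (adjusted p = 0.000100 and 0.000166). PDIA1_PONAB, another isomerase entry, was also at 0 in C. hamatus, at least 64.4-fold below G. acuticeps, but the mnemonic summed over its rows was not called in that pair (1.27, SE 0.98, adjusted p = 0.331). TMX1_HUMAN, a membrane thioredoxin, was higher in C. hamatus than the mean (3.58, SE 1.03, adjusted p = 0.0188), a call lost without C. hamatus replicate 2 (2.48, adjusted p = 0.120) or G. acuticeps replicate 3 (3.38, adjusted p = 0.0508), and 4.60 without T. bernacchii replicate 2 and 4.27 without G. acuticeps replicate 1. It was not called against T. bernacchii (1.46, SE 1.19, adjusted p = 0.385). The call against G. acuticeps (5.70, SE 1.496, adjusted p = 0.0118), where G. acuticeps had 8 reads in all, was lost without G. acuticeps replicate 3 (5.23, adjusted p = 0.0561) and was 4.58 when C. hamatus replicate 2 was left out, 7.09 for G. acuticeps replicate 1 and 5.05 for its replicate 2.

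Of the sources of superoxide and hydrogen peroxide, 2 of 4 tested rows were lower and 0 higher against the mean by edgeR (where 40.8% of all tested rows were called), and the list is too short to describe further as a group. XDH_CHICK, xanthine dehydrogenase, was lower (-4.51, SE 1.08, adjusted p = 0.00756), with 10 reads in C. hamatus, 118 reads in G. acuticeps and 565 reads in T. bernacchii, and -9.47 without C. hamatus replicate 3, the only library of its species that held any.

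Of the NRF2 partners and targets, 2 of 14 tested rows were higher and 2 lower in C. hamatus than the mean (28.6%, against 40.8% of all tested rows). NFE2_BOVIN, an NRF2 relative that drives globin and platelet genes, averaged 5.16 ± 2.06 CPM in C. hamatus, 8.77 ± 3.73 CPM in G. acuticeps and 320 ± 143 CPM in T. bernacchii (SD, n = 3 each). It was lower in C. hamatus than in T. bernacchii (-5.96, SE 0.61, adjusted p = 0.000173) and lower in G. acuticeps than in T. bernacchii (-5.17, SE 0.59, adjusted p = 0.000180), and not called between C. hamatus and G. acuticeps (-0.79, SE 0.52, adjusted p = 0.247). The glutathione conjugate pump MRP1_CHICK had 0 reads in C. hamatus, 918 reads in G. acuticeps and 1 read in T. bernacchii, and its call against the mean (adjusted p = 0.00878) was lost without T. bernacchii replicate 3 (adjusted p = 0.9998). In pairs, C. hamatus was below G. acuticeps by at least 83.5-fold (adjusted p = 0.000184) and was not called against T. bernacchii (adjusted p = 0.443). MRP1_CHICK passed the low-count filter through G. acuticeps alone, so the direction of the call against G. acuticeps was fixed in advance. The related pump MRP4_HUMAN averaged 81.3 ± 23.2 CPM in C. hamatus, 2.27 ± 0.880 CPM in G. acuticeps and 38.3 ± 21.02 CPM in T. bernacchii (SD, n = 3 each). C. hamatus was higher than the mean (3.09, SE 0.42, adjusted p = 0.000365) and than G. acuticeps (5.10, SE 0.60, adjusted p = 0.000203), but was not called against T. bernacchii (1.09, SE 0.50, adjusted p = 0.122; 1.62, adjusted p = 0.0274, without T. bernacchii replicate 2). G. acuticeps was lower than T. bernacchii (-4.01, SE 0.57, adjusted p = 0.000544).

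Of the genes of glutathione use and detoxification, 3 of 10 tested rows were higher and 1 lower than the mean (where 40.8% of all tested rows were called). GGT5_RAT, which cleaves glutathione outside cells, was higher than the mean (6.11, SE 0.83, adjusted p = 0.000362; 4.82 when C. hamatus replicate 2 was left out and 2.73 with C. hamatus replicate 1 alone). AL9A1_ORYLA, an aldehyde dehydrogenase, was higher (2.04, SE 0.49, adjusted p = 0.00786) but not without C. hamatus replicate 3 (0.98, adjusted p = 0.0616). It was called against G. acuticeps (2.86, SE 0.64, adjusted p = 0.00522; 1.79 with C. hamatus replicate 3 left out) and not against T. bernacchii (1.23, SE 0.60, adjusted p = 0.145; 1.65, adjusted p = 0.0376, without C. hamatus replicate 2). CHAC2_DANRE, which degrades glutathione in the cytosol, was lower (-1.61, SE 0.43, adjusted p = 0.0138) and lower than each species (-1.64 and -1.58, adjusted p = 0.0190 and 0.0276). The call against G. acuticeps was lost without G. acuticeps replicate 2 (-1.66, adjusted p = 0.0633), and that against T. bernacchii without C. hamatus replicate 1 or 2, G. acuticeps replicate 2 or 3 or T. bernacchii replicate 1, at -1.36 to -1.66 and adjusted p of 0.0524 to 0.0797.

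Of the selenium and copper supply list, 2 of 10 tested rows were higher and 3 lower than the mean (where 40.8% of all tested rows were called). The selenoprotein rows SELK_DANRE and SELN_DANRE, of the endoplasmic reticulum, had 0 counts in C. hamatus and averaged 152 ± 50.6 and 45.3 ± 3.61 CPM in G. acuticeps and 50.4 ± 20.03 and 72.7 ± 27.7 CPM in T. bernacchii (SD, n = 3 each). Relative to G. acuticeps, SELK in C. hamatus was lower by at least 198-fold and SELN by at least 58.9-fold, and relative to T. bernacchii by at least 65.5-fold and 94.6-fold. SBP1_DANRE, a selenium-binding protein, was higher in C. hamatus than the mean (3.17, SE 0.78, adjusted p = 0.00847), but not without C. hamatus replicate 3 (1.15, adjusted p = 0.150). It was called against G. acuticeps (4.16, SE 1.05, adjusted p = 0.00988; 2.13 when C. hamatus replicate 3 was left out, and not called with replicate 1 alone) and not against T. bernacchii (2.18, SE 0.96, adjusted p = 0.109; 2.77, adjusted p = 0.0333, without C. hamatus replicate 1).

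Of the DNA and membrane oxidation repair list, 3 of 10 tested rows were higher and 1 lower than the mean (where 40.8% of all tested rows were called). OXR1_XENTR, an oxidation resistance protein, averaged 164 ± 105.9 CPM in C. hamatus, 0.479 ± 0.425 CPM in G. acuticeps and 0.884 ± 0.845 CPM in T. bernacchii (SD, n = 3 each). It was higher in C. hamatus than the mean (7.87, SE 0.80, adjusted p = 0.000115; 7.24 without C. hamatus replicate 3). The row passed the low-count filter through C. hamatus alone, so the direction of this call was fixed in advance. The mnemonic summed over its rows gave a smaller 4.08 against the mean (SE 0.58, adjusted p = 0.00047), with 4.80 against G. acuticeps and 3.355 against T. bernacchii. 8ODP_RAT, which removes oxidized guanine nucleotides, had 172 reads in C. hamatus, 0 reads in G. acuticeps and 424 reads in T. bernacchii, so C. hamatus was at least 20.5-fold above G. acuticeps and not called against T. bernacchii (-1.06, SE 0.62, adjusted p = 0.233). SESN1_MACFA, a stress-induced sestrin, was higher than the mean (3.35, SE 0.87, adjusted p = 0.0116), with 2.63 when C. hamatus replicate 1 was left out and 4.53 when T. bernacchii replicate 2 was. It was called against G. acuticeps (5.40, SE 1.25, adjusted p = 0.00635; 4.61 with C. hamatus replicate 1 left out) and not against T. bernacchii (1.29, SE 1.04, adjusted p = 0.380; 3.67, adjusted p = 0.0124, without T. bernacchii replicate 2), and G. acuticeps was lower than T. bernacchii (-4.11, SE 1.18, adjusted p = 0.0229). That last call was lost without any 1 of the G. acuticeps libraries (-3.90 to -4.09, adjusted p = 0.0766 to 0.0916) or T. bernacchii replicate 2 (-1.71, adjusted p = 0.137).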

How the data were processed

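The authors deposited raw read counts, whole numbers per UniProt entry and library, for 3 head kidney libraries of each species. Per the labels' protocols, Trizol was used for the RNA and an Illumina TruSeq kit for the libraries. How reads were aligned and counted, and whether strand was used, is not given in the sources used here. Rows kept by filterByExpr were TMM-scaled and tested by edgeR 4.0.16 (R 4.3.3; quasi-likelihood, 9 libraries, species as the only term), with Benjamini-Hochberg adjustment over 8662 rows and calls at an adjusted p under 0.05. The SE is the absolute log2 fold change over the square root of F and is approximate. Rows at 0 in a species have bounds against a floor of 3 counts per library, on average 0.769 CPM in C. hamatus, 0.664 CPM in G. acuticeps and 0.683 CPM in T. bernacchii. Floors and intervals cover counting error only. A tested row with enough reads for the filter in a single species alone passed through that species. The direction of its calls between that species and the others was fixed in advance.

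Members and lists were chosen with earlier results of these data known. Given per library are members called the same way in both C. hamatus pairs, members called between the red-blooded species and in 1 C. hamatus pair, the row with the highest mean in each family without such a row, and the NRF2, KEAP1, heme oxygenase and biliverdin reductase rows; GPX1_MACFU, PRDX3_PONAB and GSTT1_HUMAN were added after their values were seen. Of the wider lists, up to 3 called rows with the largest change are named, except a result not reported here. Members of enzyme families, and entries of the same protein, may share reads and are uncertain. The labels give no pairing of libraries by replicate number, and the main fit used none. The fit was tested on simulated counts. Alternatives were DESeq2 1.42.0 (its size factors, and separately its test), scaling by upper quartiles, testing all rows, requiring 50 counts in 3 libraries, blocking on replicate number, only the 6 libraries of a pair, rows of 1 mnemonic summed, leaving out the 20 highest rows, C. hamatus replicates 2 and 3, or each library in turn, and plain CPM for family sums. Figures were drawn with matplotlib 3.10.9.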

Additional observations from a re-analysis of the deposited data

How the results depend on the processing

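The counts of enzyme rows called stayed within 1.5 times of 18 (C. hamatus against the mean), 16 (against G. acuticeps), 15 (against T. bernacchii), 12 (between the red-blooded species) and 9 (the same way in both pairs) under every alternative run. Leaving out each library in turn gave 14 to 20, 13 to 18, 13 to 18, 9 to 12 and 8 to 12, and C. hamatus replicate 1 alone, assumed to vary like the other groups, gave 12, 13 and 12 for C. hamatus and 6 the same way. The numbers of calls over all rows fell with it to 2041 of 3535 against the mean, 2247 of 3636 against G. acuticeps and 1780 of 2810 against T. bernacchii, and those of the wider lists against G. acuticeps to 21 of 32. With DESeq2's own test the counts were 21, 19, 16, 13 and 11. Under the replicate block they were 18, 17, 15, 12 and 9. With only the 6 libraries of the pair, 15 rows were called against G. acuticeps. Against T. bernacchii 12 were called, with 5 higher and 7 lower. Apart from C. hamatus replicate 1 alone, the counts over all rows under these alternatives are not given here. Whether the enzyme rows moved with the whole table is therefore not shown. Same-numbered libraries had deviation correlations of -0.201 to 0.245, with 2 of 9 over 0.1, against -0.16 to 0.212 for other numbers. The highest was between replicate 2 of C. hamatus and replicate 2 of T. bernacchii, and 3 of 9 libraries matched best with their own number. With 3 libraries a species, these values cannot exclude a batch shared by replicate number, and the labels name none. Among the enzyme rows the block ended the GLRX2_BOVIN calls (adjusted p = 0.0516 and 0.0691) and added PRDX3_PONAB (adjusted p = 0.0400) and GLRX1_PIG (adjusted p = 0.0335 and 0.0281).

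Of 1591 alternative values of 87 named results, 1474 kept direction and side of the threshold, 93 fell short of it and 1 passed it. The other 23 changed sign. Of the 87 named results, 81 were already called in the main fit, so few could pass the threshold. Calls gained by rows or pairs outside the named results are not in this tally. With entries of a mnemonic summed, GPX1_BOVIN became 1.17, 0.43 and 1.91 (mean, G. acuticeps, T. bernacchii), GLRX1_RICTY -0.46 and -0.49 (mean, G. acuticeps) and 0.05 (G. acuticeps over T. bernacchii), NNTM_HUMAN 0.85 and PDIA1_PONAB 1.23, which follows from adding the reads of the other entries. Uncalled values near 0 crossed it against the mean, and the cause was not tested. NF2L2_BOVIN was 0.016 with upper-quartile factors and 0.018 with the stricter filter, and ranged from -0.30 to 0.11 over libraries left out (0.11 when C. hamatus replicate 1 was, 0.08 when T. bernacchii replicate 1 was). KEAP1_PIG was 0.039 with upper-quartile factors and -0.42 to 0.15 over libraries left out (0.15 when C. hamatus replicate 2 was), and 0.43 with C. hamatus replicate 1 alone. PRDX5_HUMAN was 0.021 with DESeq2's size factors and with its test, 0.040 with upper-quartile factors, 0.063 with the stricter filter, and -0.70 to 0.30 over libraries left out, above 0 when C. hamatus replicate 1 (0.14) or 2, G. acuticeps replicate 3 (0.14) or T. bernacchii replicate 3 (0.07) was. In plain CPM the thioredoxin system of G. acuticeps averaged 500.1, against 538 after scaling. With 3 libraries a species, differences of the size of the SEs given are not resolved.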

Other observations

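Some redox rows lay outside the name rule and were picked after the row names and values were seen, so they are given as values. HMOX_TAKRU, a heme oxygenase entry from a pufferfish, had 16.9, 11.5 and 19.1 CPM in C. hamatus, 67.9, 56.8 and 54.3 CPM in G. acuticeps, and 73.0, 113 and 34.6 CPM in T. bernacchii. No C. hamatus library reached any other, and the row was lower than in G. acuticeps (log2 fold change -1.91, SE 0.49, edgeR adjusted p = 0.0102) and in T. bernacchii (-2.21, SE 0.49, adjusted p = 0.00649). MGST3_MOUSE, a microsomal glutathione transferase, averaged 188 ± 99.1 CPM in C. hamatus, 711 ± 249.9 CPM in G. acuticeps and 342 ± 61.2 CPM in T. bernacchii (SD, n = 3 each), and was lower in C. hamatus relative to G. acuticeps (-1.92, SE 0.49, adjusted p = 0.00995). PTGES_HORSE, a prostaglandin synthase of the same superfamily, had 16.2, 8.46 and 28.2 CPM in C. hamatus, 0.934, 0 and 0 CPM in G. acuticeps and 0 in every T. bernacchii library, and was higher in C. hamatus (adjusted p = 0.0114 and 0.00556). That row passed the low-count filter through C. hamatus alone. MGST1_HUMAN, at 55.8 ± 13.0 CPM in C. hamatus, 49.9 ± 20.2 CPM in G. acuticeps and 44.6 ± 31.7 CPM in T. bernacchii (SD, n = 3 each), was not called. SELR1_DANRE, a methionine sulfoxide reductase entry for the R form, had 6.05 ± 0.865 CPM in C. hamatus, 12.5 ± 0.152 CPM in G. acuticeps and 12.6 ± 8.15 CPM in T. bernacchii (SD, n = 3 each) and was not called.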
